A study of Mus musculus with 65 samples.

Results

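The mouse genes of the solute carrier families Slc1, Slc3, Slc6, Slc7, Slc36, Slc38 and Slc43, which hold most of the known amino acid transporters, were followed through RNA sequencing of dendritic cells and macrophages. They were taken by symbol alone, as every gene named Slc1a, Slc3a, Slc6a, Slc7a, Slc36a, Slc38a or Slc43a with a number after it. This gave 60 of the 23755 genes in the table: 7 of Slc1, 2 of Slc3, 18 of Slc6, 15 of Slc7, 4 of Slc36, 11 of Slc38 and 3 of Slc43. Of these, 42 passed the filter on low counts in at least 1 experiment: 38 in the lipopolysaccharide time course, 36 in the unstimulated knockout cells and 35 in the macrophage line. The other 18 never passed, and 26 stayed under 1 CPM in every group mean. CPM here means counts of a gene scaled to a library total of 1e6 gene counts. Slc6 is the most mixed family, since it also carries neurotransmitters, taurine, betaine and creatine.

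Amino acid transporters set which amino acids a cell can take up, exchange or release. Slc7 light chains are exchangers that mostly need an Slc3 heavy chain to reach the surface. Slc1 and Slc38 proteins take up glutamate, glutamine and small neutral amino acids with sodium. Slc43 proteins are uniporters of large neutral amino acids, apart from the purine base transporter Slc43a3. Slc36a1 and Slc38a9 sit on the lysosome, where amino acids are sensed by the kinase complex mTORC1. In macrophages and dendritic cells, arginine uptake feeds nitric oxide and ornithine production, and cystine uptake feeds glutathione synthesis.

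The 65 libraries fall into 19 groups of 3 experiments, with 3 biological replicates per condition as stated by the submitters. One held unstimulated bone marrow derived dendritic cells (BMDC) of C57BL/6 mice that were wild type (WT), Suv39h1KO (no H3K9 methyltransferase SUV39H1), IfnarKO (no type I interferon receptor) or carried both deletions, with 3 libraries each. Another held BMDC of the same strain background that were WT, MyD88KO or TrifKO, the adaptors through which Toll-like receptor 4 signals, each taken before and 2 h and 4 h after lipopolysaccharide (LPS, 100 ng/mL), the bacterial ligand of that receptor. It had 6, 5 and 6 WT libraries at 0 h, 2 h and 4 h, and 3 libraries in each knockout group. The last held RAW264.7 cells, a macrophage line from BALB/c mice, with a control guide, guide 1 or guide 2 (targets not given in the sources used here), before and 2 h after LPS, with 3 libraries in each of 6 groups. The titles of that last experiment speak of dendritic cells and its source label of RAW264.7, and its 0 h libraries carry the stimulation label LPS. BMDC cultures are mixtures of cells, and in bulk libraries fewer cells of a type and less RNA per cell cannot be told apart.

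Library totals ran from 36.9 to 95.3 M gene counts (median 54.7 M). Dendritic cell markers added up to 3850 to 5230 CPM over 8 genes in WT BMDC at 0 h and 3423 to 5439 CPM at 4 h. The 8 macrophage markers added up to 1517 to 1777 CPM at 0 h and 775 to 1107 CPM at 4 h. The 6 granulocyte markers added up to 181 to 528 and 144 to 441 CPM, and the 5 plasmacytoid markers to 165 to 235 and 434 to 704 CPM with Siglech under 0.1 CPM at 4 h. At the same times the 7 mast cell and basophil markers were at 15.1 to 58.3 and 35.3 to 128 CPM with Tpsb2 and Cma1 under 0.1 CPM. Markers of B cells (0.372 to 5.56 and 0.512 to 11.5 CPM), T and NK cells (1.01 to 22.4 and 2.22 to 7.01 CPM), erythroid cells (48.1 to 147 and 44.6 to 111 CPM) and stroma (0.514 to 8.85 and 0.928 to 7.48 CPM) were lower. The part of these shifts in the transporter results was not tested. RAW264.7 libraries with the control guide held the macrophage markers at 2126 to 2134 CPM before LPS. Of these markers, Cd163, Marco and Timd4 were under 0.1 CPM. Their 8 dendritic cell markers added up to 14.2 to 22.4 CPM before LPS, with Flt3, Clec9a, Cd209a and H2-Ab1 under 0.1 CPM. After 2 h of LPS the dendritic sum averaged 67.8 CPM. The macrophage sum of this line averaged 2131 CPM before and 1291 CPM after LPS. Its mast cell and basophil sum averaged 42.6 and 91.8 CPM, with Cpa3, Ms4a2, Mcpt8, Tpsb2 and Cma1 under 0.1 CPM at both times. Marker sums thus moved after LPS in a cell line as well. The dendritic sums of RAW264.7 cells were far below those of WT BMDC, so the dendritic label of their titles was not borne out.

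Among the targeted genes, Suv39h1 was at 0.111 to 0.357 CPM in Suv39h1KO and 0.141 to 0.370 CPM in double-knockout libraries against 36.1 to 66.7 CPM where it was intact. Myd88 at 0 h was at 56.0 to 60.5 CPM in MyD88KO against 86.9 to 93.2 CPM in WT. Ifnar1 was at 134 to 156 CPM in IfnarKO and 171 to 199 CPM in WT. Ticam1, which encodes TRIF, was at 2.98 and 2.46 CPM in replicate 3 at 2 h and at 4 h, but at 35.1 to 48.5 CPM in the other 7 libraries labelled TrifKO against 21.6 to 44.5 CPM in 17 WT libraries. The allele is not described in the sources used here. From Ticam1 alone, a transcript that is still made cannot be told apart from a wrong label. After LPS, Myd88 was at 145 to 161 CPM at 2 h and 125 to 144 CPM at 4 h in libraries labelled TrifKO. In WT it was at 258 to 278 and 292 to 376 CPM, while the ranges overlapped at 0 h (80.7 to 91.2 against 86.9 to 93.2 CPM). What these values mean for the labels was not tested. Xist, a marker of female cells, also did not keep to the replicate numbers in the libraries labelled TrifKO. In WT and MyD88KO it was at most 0.0698 CPM in each replicate 3 and at least 470.3 CPM in replicates 1 and 2. In libraries labelled TrifKO it was at most 0.0370 CPM in replicate 1 at 0 h, replicates 1 and 3 at 2 h, and replicates 2 and 3 at 4 h. Every direction drawn from these libraries rests on their labels. The WT libraries fell into those numbered 1 to 30, as MyD88KO, and 33 to 50, as the libraries labelled TrifKO. The sources used here do not say whether WT libraries of the same cohort number come from the same cells. If they do, p-values are too small. Libraries of a group were also compared in pairs by chi-square per degree of freedom, which is lower for closer libraries. For WT libraries of the same cohort number in different number ranges it was 39.1 to 380. For WT replicates 1 and 2 numbered 33 to 50 it was 10.5 to 16.9. In the libraries labelled TrifKO it was 6.53 to 21.1 at 0 h, and 25.7 at 2 h and 25.6 at 4 h for replicates 1 and 2. Whether these closer libraries share cells is not stated either.

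Before LPS, WT BMDC of the time course devoted 2777 CPM to the 60 members together, and 15 members made up 90% of it. Per kilobase of exon, the highest levels were those of the taurine transporter Slc6a6 (85.1 CPM per kb), the heavy chain Slc3a2 (75.4), the cystine/glutamate exchanger Slc7a11 (26.95), the glutamine carrier Slc1a5 (22.2) and the uniporter Slc43a2 (21.2). After 4 h of LPS the 90% came from 8 members, and the arginine carrier Slc7a2 led with 113 CPM per kb, followed by Slc3a2 (111), Slc6a6 (87.0), Slc7a11 (69.0) and the neutral amino acid exchanger Slc7a8 (41.7). RAW264.7 cells with the control guide had another order before LPS, with the betaine and GABA transporter Slc6a12 first (169 CPM per kb). It was followed by Slc1a5 (118), the alanine and glutamine carrier Slc38a2 (111), Slc6a6 (100.2), the leucine exchanger Slc7a5 (80.1), Slc3a2 (71.6) and the arginine carrier Slc7a1 (52.0). Cell type and experiment cannot be told apart in that contrast.

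**Figure D1:**
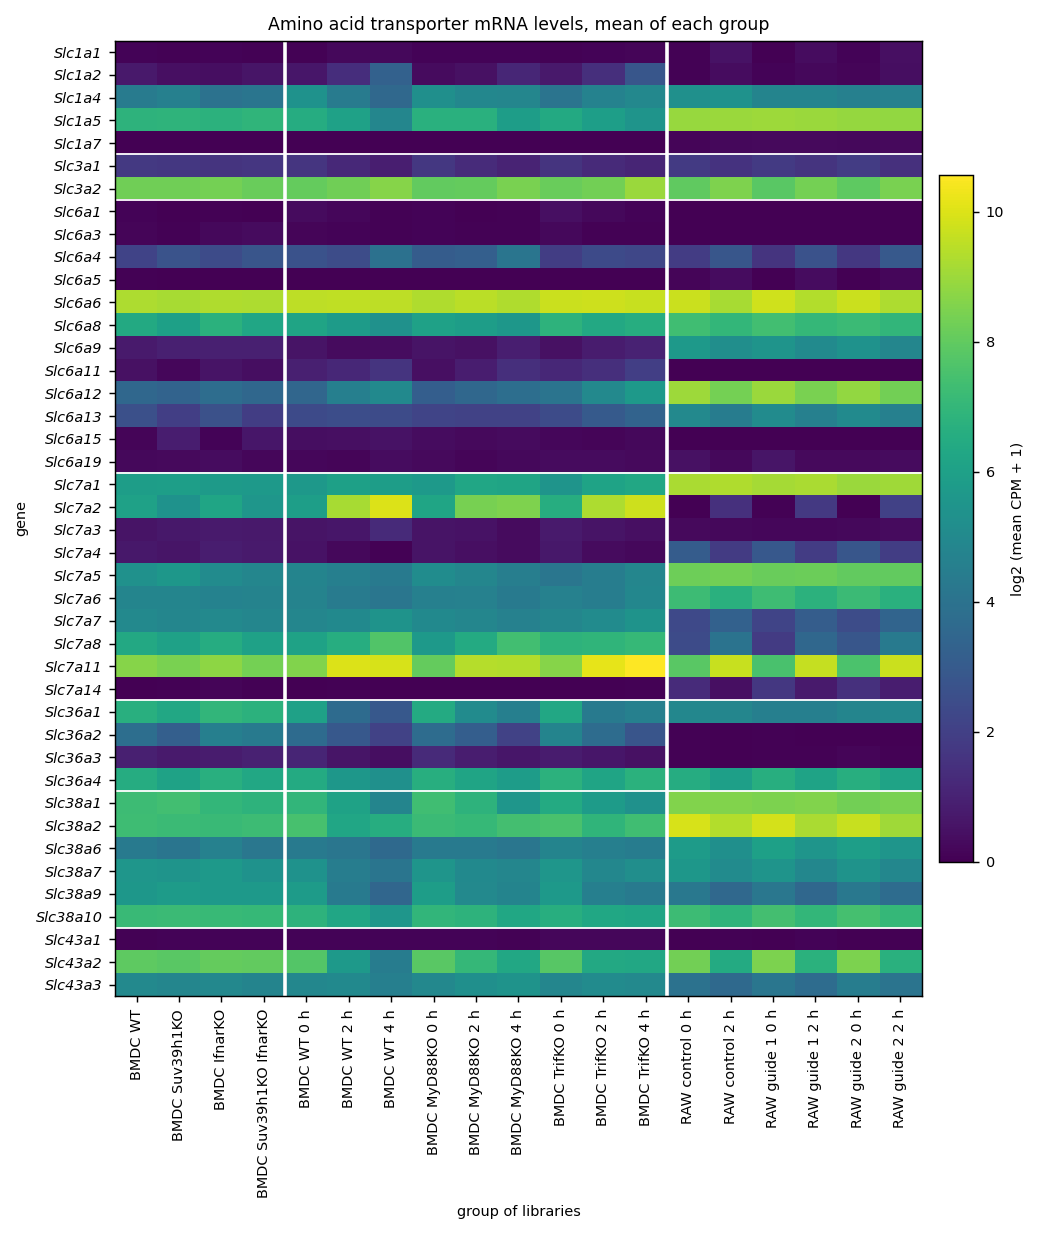
Level of each transporter that passed the filter in at least 1 experiment (rows, in family order) in each group of libraries (columns), as log2 of the group's mean CPM plus 1, with brighter colors for higher levels. Slc7a2 and Slc7a11 are brighter in stimulated than in unstimulated WT BMDC, while Slc1a5, Slc38a2 and Slc6a12 are brighter in every RAW264.7 column than in any BMDC column.

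Summed by family, Slc7 took 631 ± 118 (SD, n = 6) CPM in WT BMDC at 0 h, 1830.4 ± 670.1 (SD, n = 5) at 2 h and 2340.1 ± 695 (SD, n = 6) at 4 h. Between 0 h and 4 h, Slc38 went from 525.5 ± 39.5 to 203 ± 35.9 CPM, Slc43 from 241 ± 17.4 to 43.3 ± 11.9, Slc36 from 165 ± 34.7 to 47.97 ± 15.8 and Slc1 from 134 ± 34.5 to 47.7 ± 13.2. Slc3 went from 268 ± 19.8 to 394 ± 56.3 CPM, and Slc6 from 812 ± 156 to 828.7 ± 124. The Slc6 difference is within its spread in these unscaled CPM, but with TMM-scaled library sizes its means were 683 and 1096 CPM. These family sums are descriptions without a test, and a sum follows its most abundant members. In RAW264.7 cells with the control guide (n = 3), 2 h of LPS took Slc7 from 1298 ± 21.8 to 1881 ± 67.8 CPM, Slc38 from 1622 ± 57.4 to 1230.2 ± 18.1 and Slc6 from 1609.6 ± 55.3 to 1105 ± 24.8. Slc43 went from 332 ± 18.1 to 97.9 ± 7.04 CPM, Slc36 from 122 ± 7.02 to 90.02 ± 1.06, Slc3 from 255 ± 7.29 to 370.1 ± 17.1 and Slc1 from 531 ± 23.9 to 539 ± 15.8.

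**Figure D2:**
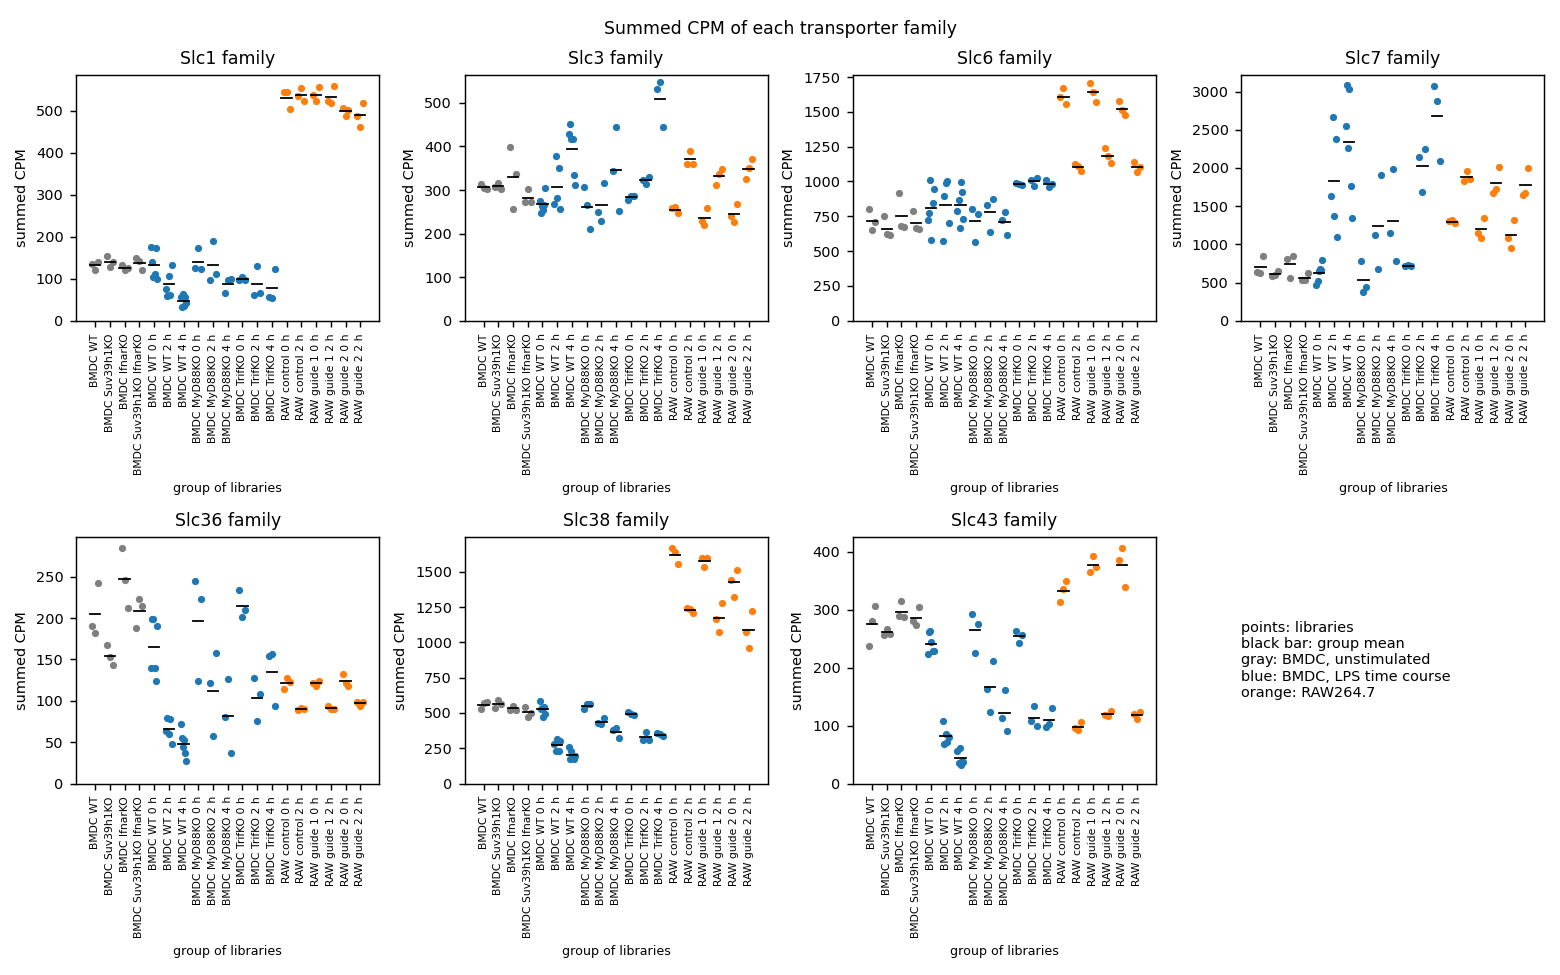
Summed CPM of each family (y axis) in every group (x axis), where points are libraries and black bars are group means. The Slc7 sum climbs and the Slc38, Slc43 and Slc36 sums drop after LPS in WT BMDC, and the Slc43 sum also drops in RAW264.7 cells with the control guide, from 332 to 97.9 CPM.

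The response of WT BMDC to LPS was the first comparison. At 2 h, 10 of the 38 tested members rose and 6 fell (edgeR quasi-likelihood test, Benjamini-Hochberg adjusted p under 0.05). Of all genes 45.9% were called, 21.3% higher and 24.6% lower. At 4 h, 17 rose and 12 fell, beside 65.1% of all genes (30% higher and 35.1% lower). When libraries were scaled by total counts alone the balance turned, to 5 higher and 12 lower at 2 h and 11 higher and 18 lower at 4 h. Directions of small changes therefore rest on the scaling, and a call alone says little in these cells. The median log2 fold change at 4 h was 0.10 over the members and -0.07 over all genes. By family, 6 of 9 tested Slc7 members and 7 of 10 Slc6 members rose at 4 h, while 5 of 6 Slc38 members and 3 of 4 Slc36 members fell. Of those Slc6 calls, those of Slc6a6, Slc6a13, Slc6a15 and Slc6a19 were lost when libraries were scaled by total counts alone. Levels below are CPM of the library total, on which overlap is judged, and fold changes are scaled by TMM. Overlap is judged over all libraries of a group, without pairing those of the same cohort number. With total counts alone the median of all genes moved by -0.38 at 2 h and -0.64 at 4 h on the log2 scale. Reported rises after LPS are therefore larger, and reported falls smaller, than the ratios of the CPM.

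The largest change among the members in WT BMDC at 4 h was that of an arginine carrier. Slc7a2 (chr8:40862396-40922308, GENCODE M21 on mm10, plus strand) encodes CAT2, the inducible cationic amino acid transporter. Its level in WT BMDC was 29.8 to 104 (median 58.3) CPM at 0 h, 1100.1, 988, 249, 372 and 193 CPM at 2 h, and 477 to 1778 (median 854) CPM at 4 h. Every stimulated WT library lay above every unstimulated one, with a log2 fold change of 3.70 ± 0.60 (adjusted p = 9.0e-06) at 2 h and 4.76 ± 0.62 (adjusted p = 1.1e-07) at 4 h, ± SE. In MyD88KO it went from 56.04, 140.2 and 21.9 CPM to 317, 656 and 124 CPM at 4 h (2.65 ± 0.80, adjusted p = 0.011), where the lowest stimulated library lay below the highest unstimulated one. Within each MyD88KO replicate Slc7a2 rose. In the libraries labelled TrifKO it went from 87.7, 96.9 and 98.5 to 1164, 1067 and 352 CPM at 4 h (3.42 ± 0.83, adjusted p = 0.0028), with no overlap. The differences of these responses from that of WT, -2.12 ± 0.94 (adjusted p = 0.19) for MyD88KO and -1.34 ± 0.93 (adjusted p = 0.35) for the libraries labelled TrifKO, did not pass. The fit behind these values holds no term for the cohort number. Replicates varied widely: within a genotype, library set and time, replicate 3 had the lowest Slc7a2 in 11 of 12 cases.

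In RAW264.7 cells Slc7a2 stayed low. With the control guide it had 0 counts in all 3 libraries before LPS and 282 counts after it (1.55, 1.93 and 1.802 CPM), at least 88.7-fold higher when 3 counts over the group stand for the 0. Slc7a1, the constitutive cationic carrier CAT1, was instead abundant there, at 606, 611 and 579.9 CPM before and 601, 637 and 633 CPM after LPS, and did not pass (0.24 ± 0.14, adjusted p = 0.18). In WT BMDC Slc7a1 was at 40.3 to 62.2 (median 45.9) CPM at 0 h and 43.3 to 81.1 (median 56.7) CPM at 4 h. It rose by 0.91 ± 0.13 (adjusted p = 6.7e-07) under TMM scaling, and with total counts alone the value was 0.27 with an adjusted p of 0.087. Slc7a4, a CAT-related protein with no settled substrate, was at most 1.26 CPM in any BMDC library. It fell in WT BMDC from a mean of 0.419 to 0.0527 CPM at 4 h (-2.29 ± 0.57, adjusted p = 8.6e-04) and in RAW264.7 cells from 8.41, 7.77 and 6.35 to 2.65, 2.48 and 2.66 CPM (-1.36 ± 0.14, adjusted p = 2.6e-07), with no overlap. Slc7a3, another cationic carrier, averaged 0.454 CPM in WT at 0 h and 1.36 CPM at 4 h (log2 fold change 2.24).

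Of 13 tested genes of arginine, ornithine and nitric oxide metabolism, 8 rose and 1 fell in WT BMDC at 4 h (median log2 fold change 0.50), 69.2% beside 65.1% of all genes called. In RAW264.7 cells with the control guide at 2 h, 8 rose and none fell (median 0.52), 61.5% beside 51.6% of all genes. In BMDC the largest were the inducible nitric oxide synthase Nos2 (9.45), Gch1, which makes its cofactor (2.48), the mitochondrial arginase Arg2 (1.64) and Ass1, which remakes arginine from citrulline (1.21). In RAW264.7 cells they were Nos2 (6.17), the ornithine decarboxylase Odc1 (2.61), Ass1 (2.15) and Gch1 (1.25). The Nos2 response in MyD88KO at 4 h differed from that of WT by -5.23 ± 1.21 (adjusted p = 0.0079).

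Slc7a11 (chr3:49892526-50443614, minus strand), the light chain of the cystine/glutamate exchanger xCT, rose in every genotype and in both cell types. In WT BMDC it stood at 249.9 to 462 (median 402) CPM at 0 h, 1301, 1132, 903, 1065 and 686 CPM at 2 h, and 552 to 1228 (median 935) CPM at 4 h. The log2 fold change was 1.83 ± 0.24 (adjusted p = 4.1e-07) at 2 h and 1.98 ± 0.24 (adjusted p = 2.2e-08) at 4 h, and stimulated and unstimulated WT libraries did not overlap. The libraries labelled TrifKO reached 1568, 1486 and 1471 CPM at 4 h from 392, 399 and 410.3 (2.14 ± 0.34, adjusted p = 3.1e-05). Their response did not pass as different from that of WT (0.16 ± 0.40, adjusted p = 0.84). MyD88KO libraries went from 211, 414 and 186 to 521, 953 and 453 CPM (1.58 ± 0.33, adjusted p = 4.8e-04). In RAW264.7 cells with the control guide it went from 219, 225 and 258 to 789.5, 863 and 782 CPM at 2 h (1.97 ± 0.20, adjusted p = 2.9e-07), again without overlap.

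The Slc7a11 promoter is shown because it carries, in these windows of 250 bases before to 50 after each RefSeq start, a pair of ATF4 composite elements (TGATGNAA, either strand), which 3.97% of all 32851 mouse promoters hold at least once. The first 260 bases of the window (chr3:50443604-50443863, GRCm38.p6, minus strand) follow, 5′ to 3′, with both matches in capitals, which begin 66 and 47 bases before the start.
Slc7a11 promoter: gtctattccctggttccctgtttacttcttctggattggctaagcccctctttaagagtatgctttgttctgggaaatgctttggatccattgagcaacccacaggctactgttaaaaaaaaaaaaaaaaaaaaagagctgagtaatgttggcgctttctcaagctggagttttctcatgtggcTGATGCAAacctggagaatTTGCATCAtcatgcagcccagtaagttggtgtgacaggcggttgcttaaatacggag
Of the 60 members, 42 have a RefSeq promoter entry here, 63 promoters in all, of which 5 hold the element: 1 each of Slc7a11, Slc1a4 and Slc6a21, and a pair of overlapping windows of Slc7a7. A match describes letters only. Slc7a2, Slc7a5, Slc1a5 and Slc38a1 have no entry.

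Slc3a2 (chr19:8706882-8723369, minus strand), the heavy chain 4F2hc shared by Slc7a5, Slc7a6, Slc7a7, Slc7a8 and Slc7a11, stood at 246 to 302 (median 262) CPM in WT BMDC at 0 h and 311 to 451 (median 416) CPM at 4 h. All stimulated WT libraries at 4 h were above all unstimulated ones (1.21 ± 0.13, adjusted p = 3.8e-09). It also rose in MyD88KO (209, 304 and 262 to 344, 443 and 251 CPM, 0.76 ± 0.19, adjusted p = 0.0019), where the groups overlapped. The libraries labelled TrifKO showed a rise without overlap (284, 276 and 285 to 532, 547 and 443 CPM, 1.08 ± 0.19, adjusted p = 9.0e-05). In RAW264.7 cells it went from 256, 258 and 245 to 359, 388 and 357 CPM (0.72 ± 0.07, adjusted p = 8.4e-08). Slc3a1, the heavy chain of the cystine and dibasic amino acid system of kidney and gut, averaged 2.13 CPM at 0 h and 0.836 CPM at 4 h in WT BMDC (-0.70 ± 0.16, adjusted p = 3.6e-04).

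Among 18 tested genes of cystine and glutathione metabolism and of the NRF2 targets, 12 rose and 2 fell in WT BMDC at 4 h (median 0.71), 77.8% beside 65.1% of all genes. They were led by Ggt1, which splits extracellular glutathione (1.97), Keap1, which holds NRF2 in check (1.69), the peroxiredoxin Prdx1 (1.50) and the thioredoxin reductase Txnrd1 (1.46). In RAW264.7 cells at 2 h, 4 of 16 rose and 7 fell (median -0.17), 68.8% beside 51.6% of all genes. Srxn1, a sulfiredoxin (2.30), and Txnrd1 (0.99) rose, and Keap1 (-0.81) and Gclc, which makes the first bond of glutathione (-0.73), fell. Of the ATF4 and amino acid stress list, 8 of 25 rose and 8 fell in WT BMDC at 4 h (median -0.15), 64% and so near the 65.1% of all genes. The largest were Nupr1 at 2.49, Cth, which makes cysteine, at 2.21, the eIF2 kinase Eif2ak3 at -2.12 and Atf3 at 1.71. In RAW264.7 cells 15 of 24 rose and 2 fell (median 0.36), 70.8% beside 51.6% of all genes. They were led by Ppp1r15a at 1.53, Atf3 at 1.25, the glutathione-degrading Chac1 at 1.12 and Cth at 1.10.

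**Figure D3:**
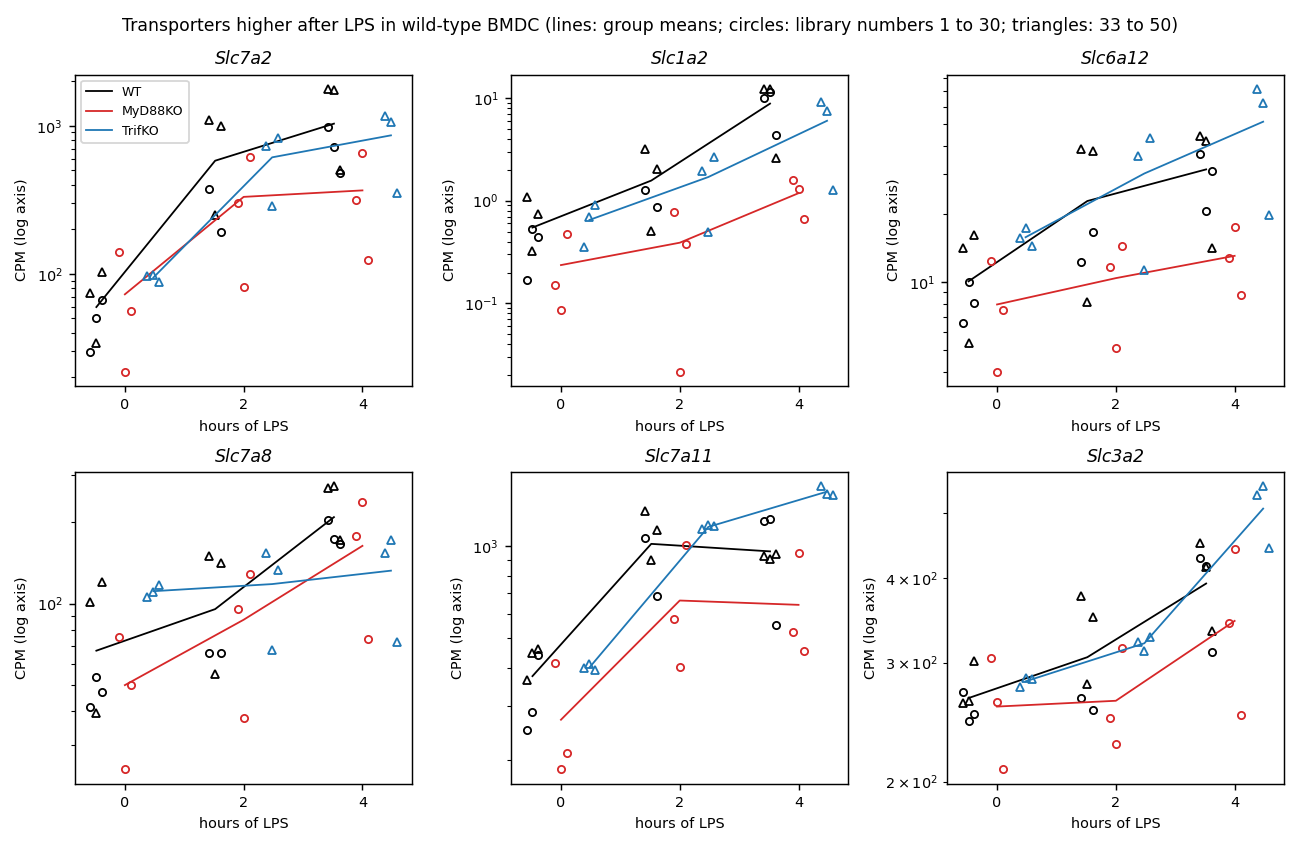
CPM (y axis, log scale) against hours of LPS (x axis) in BMDC for 6 members that rose in WT at 4 h, with 1 symbol per library, lines through the group means, and the genotypes set side by side at each time. All stimulated WT libraries lie above all unstimulated ones for Slc7a2 and Slc7a11.

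The other light chains moved in several ways. Slc7a8 (chr14:54722209-54781946, minus strand), the LAT2 exchanger of neutral amino acids, stood at 39.3 to 119.9 (median 50.2) CPM in WT BMDC at 0 h and 166 to 271 (median 189) CPM at 4 h, with no overlap (2.28 ± 0.38, adjusted p = 6.1e-06). MyD88KO libraries went from 50.1, 75.4 and 24.4 to 178, 238 and 73.8 CPM (2.04 ± 0.54, adjusted p = 0.0039), and the groups overlapped slightly, with replicate 3 the lowest at both times. The libraries labelled TrifKO did not pass, at 117, 106 and 110.3 CPM at 0 h, then 154, 171 and 72.2 CPM at 4 h (0.48 ± 0.52, adjusted p = 0.54). In RAW264.7 cells Slc7a8 was lower and went from 4.25, 4.03 and 4.69 to 14.4, 15.2 and 16.1 CPM (2.00 ± 0.16, adjusted p = 1.4e-08).

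Slc7a7 (chr14:54369442-54417780, minus strand), the y+LAT1 light chain that exports cationic against neutral amino acids, stood at 24.5 to 32.4 (median 26.4) CPM in WT at 0 h and 30.6 to 59.3 (median 40.5) CPM at 4 h (1.25 ± 0.13, adjusted p = 1.1e-09). In MyD88KO it was at 31.3, 30.2 and 32.9 CPM at 0 h, 30.02, 26.00 and 27.1 CPM at 2 h, then 23.6, 22.2 and 25.5 CPM at 4 h (-0.06 ± 0.18, adjusted p = 0.84), and all 3 libraries at 4 h were below every WT library of that time. The libraries labelled TrifKO went from 26.6, 28.6 and 28.9 to 52.1, 39.1 and 35.9 CPM (0.83 ± 0.18, adjusted p = 0.0011). In RAW264.7 cells it went from 4.24, 3.26 and 4.41 to 7.76, 8.03 and 10.6 CPM (1.33 ± 0.20, adjusted p = 2.2e-05). Its promoter is shown as that of a member that rose in WT and did not pass in MyD88KO. In the second of its RefSeq windows (chr14:54417693-54417952, GRCm38.p6, minus strand, first 260 bases), an ATF4 composite element begins 243 bases and a kappaB site, the motif of NF-kB, 124 bases before the start, both in capitals. It is the only window of Slc7a7 that holds both motifs. A kappaB site is held by 8.46% of all mouse promoters and by 9 of the 63 member promoters.
Slc7a7 promoter: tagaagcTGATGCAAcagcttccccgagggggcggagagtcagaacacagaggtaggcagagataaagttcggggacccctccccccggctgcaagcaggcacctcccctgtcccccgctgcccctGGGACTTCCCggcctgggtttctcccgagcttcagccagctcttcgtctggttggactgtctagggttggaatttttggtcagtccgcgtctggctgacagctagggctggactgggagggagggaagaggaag
Slc7a5, the LAT1 leucine exchanger, was at 15.6 to 38.7 (median 27.7) CPM in WT at 0 h and 12.02 to 28.2 (median 18.03) CPM at 4 h (0.16 ± 0.24, adjusted p = 0.58). Libraries labelled TrifKO had 17.5, 15.9 and 16.6 CPM at 0 h, then 25.5, 22.2 and 34.4 CPM at 4 h (0.94 ± 0.34, adjusted p = 0.042). Without the pair of low-Ticam1 libraries the value was 0.75 with an adjusted p of 0.13. In RAW264.7 cells, where it was far higher, Slc7a5 had 302, 310.1 and 279 CPM before and 308, 321 and 309 CPM after LPS (0.25 ± 0.11, adjusted p = 0.06). Slc7a6, the y+LAT2 light chain, averaged 25.3 CPM at 0 h and 16.7 CPM at 4 h in WT BMDC (0.04 ± 0.16, adjusted p = 0.85). It fell in RAW264.7 cells from 159, 153 and 139 to 105, 109 and 97.8 CPM (-0.35 ± 0.06, adjusted p = 1.1e-04). It overlaps the antisense gene Slc7a6os, and whether counting used strand is not given in the sources used here.

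Slc1a2 (chr2:102658659-102790784, plus strand), the glutamate transporter best known from astrocytes as GLT-1, was nearly silent in WT BMDC at 0 h (0.168 to 1.09 (median 0.486) CPM). It stood at 3.18, 2.03, 0.506, 1.27 and 0.863 CPM at 2 h, and 2.61 to 12.3 (median 10.7) CPM at 4 h, where every library was above every unstimulated one (4.64 ± 0.64, adjusted p = 2.3e-07). It rose at 4 h in MyD88KO to 1.59, 1.300 and 0.657 CPM (2.63 ± 0.90, adjusted p = 0.024) and in the libraries labelled TrifKO to 9.22, 7.501 and 1.26 CPM (3.42 ± 0.85, adjusted p = 0.0036). RAW264.7 cells stayed low, at 0, 0.0911 and 0.0474 before and 0.259, 0.265 and 0.339 after LPS (2.93 ± 0.69, adjusted p = 0.0017). Slc1a1, the neuronal and epithelial glutamate and cysteine transporter, also rose from a low level, by 2.19 on the log2 scale in WT BMDC at 4 h and 3.12 in RAW264.7 cells.

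Slc6a12 (chr6:121343076-121365775, plus strand), which carries betaine and GABA, stood at 5.37 to 16.2 (median 9.04) CPM in WT BMDC at 0 h and 14.1 to 44.2 (median 34.1) CPM at 4 h, with an overlap at the low end (2.29 ± 0.44, adjusted p = 3.8e-05). It rose in the libraries labelled TrifKO to 71.98, 62.3 and 19.8 CPM (1.94 ± 0.61, adjusted p = 0.019) and did not pass in MyD88KO (1.05 ± 0.60, adjusted p = 0.18). In RAW264.7 cells it was the member with the highest level per kilobase before LPS and fell, from 540.1, 565 and 445 to 339, 348 and 302 CPM (-0.47 ± 0.13, adjusted p = 0.0053), without overlap. Its promoter is shown because the direction differed between the cell types. The first of 5 RefSeq windows (chr6:121342324-121342583, GRCm38.p6, plus strand, first 260 bases) has a kappaB site 133 bases and an AP-1 site (TGANTCA, in 7.81% of all promoters) 58 bases before the start, in capitals. No motif searched matched in the other windows of Slc6a12.
Slc6a12 promoter: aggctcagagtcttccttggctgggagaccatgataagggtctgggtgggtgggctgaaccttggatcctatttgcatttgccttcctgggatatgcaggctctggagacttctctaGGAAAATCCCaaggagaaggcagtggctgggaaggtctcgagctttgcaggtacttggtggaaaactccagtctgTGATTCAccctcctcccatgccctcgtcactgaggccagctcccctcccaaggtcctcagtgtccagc
Slc6a13, a related GABA transporter, stood at 2.12 to 5.49 (median 4.44) CPM in WT at 0 h and 2.75 to 6.69 (median 4.07) CPM at 4 h (0.70 ± 0.27, adjusted p = 0.028). The call was lost without WT library 11, 14 or 35. Its value in the libraries labelled TrifKO was 1.29 ± 0.39 (adjusted p = 0.015), and RAW264.7 cells went from 30.2, 27.6 and 33.02 to 19.6, 19.6 and 22.6 CPM (-0.37 ± 0.07, adjusted p = 2.9e-04). Slc6a4, the serotonin transporter, stood at 2.99 to 8.35 (median 5.52) CPM at 0 h and 7.79 to 20.5 (median 15.1) CPM at 4 h in WT (2.09 ± 0.37, adjusted p = 1.3e-05). It also rose in RAW264.7 cells, from 2.31, 3.28 and 2.44 to 6.66, 6.38 and 5.48 CPM (1.39 ± 0.20, adjusted p = 1.5e-05). Slc6a6 rose in WT BMDC at 4 h by 0.69 under TMM scaling, though its value was 0.03 with total counts, and fell in RAW264.7 cells by 0.35 on the log2 scale.

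The largest fall among the members in WT BMDC at 4 h was that of Slc43a2 (chr11:75531694-75577575, plus strand), the LAT4 uniporter of leucine, phenylalanine and methionine. In WT BMDC it stood at 196 to 235 (median 206) CPM at 0 h, 37.6, 40.6, 50.3, 77.7 and 48.8 CPM at 2 h, and 11.7 to 33.9 (median 16.5) CPM at 4 h. The 3 ranges did not touch, with a log2 fold change of -1.69 ± 0.22 (adjusted p = 2.6e-07) at 2 h and -2.76 ± 0.21 (adjusted p = 3.6e-12) at 4 h. In MyD88KO it went from 251, 254 and 198 CPM to 129, 165 and 92.8 CPM at 2 h, then 73.7, 110.2 and 53.6 CPM at 4 h (-1.23 ± 0.29, adjusted p = 0.0013). In the libraries labelled TrifKO it went from 225, 238 and 215 CPM to 75.9, 69.00 and 97.3 CPM at 2 h, then 73.1, 71.8 and 92.4 CPM at 4 h (-1.29 ± 0.29, adjusted p = 0.0014). Every knockout library of either kind at 4 h was above every WT library of that time. RAW264.7 cells went from 299, 321 and 332 to 84.6, 82.8 and 92.99 CPM at 2 h, a log2 fold change of -1.69 ± 0.07 (adjusted p = 1.9e-12), beside -1.69 in WT BMDC at that time.

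The Slc43a2 promoter is shown as that of the member with the largest fall in WT BMDC at 4 h, which also fell in RAW264.7 cells. In its first RefSeq window (chr11:75531444-75531703, GRCm38.p6, plus strand, first 260 bases) a kappaB site, in capitals, begins 226 bases before the start, and none of the other motifs searched matched. The interferon-stimulated response element (ISRE), in 3.44% of all promoters, was in none of the 63 member promoters.
Slc43a2 promoter: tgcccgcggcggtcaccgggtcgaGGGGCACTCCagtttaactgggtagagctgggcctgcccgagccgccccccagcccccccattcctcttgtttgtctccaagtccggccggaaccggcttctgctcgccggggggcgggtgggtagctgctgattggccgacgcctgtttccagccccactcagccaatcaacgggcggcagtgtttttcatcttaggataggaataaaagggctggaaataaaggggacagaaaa
Slc43a3, a purine base transporter of the same family, rose in WT BMDC at 4 h by 0.30 under TMM scaling but had -0.34 with total counts (adjusted p = 0.011), so its direction depends on the scaling.

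Both lysosomal carriers fell in WT BMDC. Slc36a1 (chr11:55204350-55236330, plus strand), the proton-coupled PAT1, stood at 47.8 to 84.1 (median 63.6) CPM at 0 h, 14.3, 13.03, 9.59, 11.8 and 11.03 CPM at 2 h, and 4.76 to 9.84 (median 5.99) CPM at 4 h. The stimulated libraries were all below the unstimulated ones (-2.69 ± 0.25, adjusted p = 2.0e-10 at 4 h). MyD88KO went from 97.1, 104 and 57.4 to 21.8, 36.4 and 8.82 CPM (-1.62 ± 0.34, adjusted p = 5.2e-04). Those labelled TrifKO went from 74.3, 87.5 and 73.7 to 24.8, 25.5 and 18.5 CPM (-1.54 ± 0.34, adjusted p = 0.0013). RAW264.7 cells did not pass, with 24.3, 30.3 and 30.9 CPM before and 26.7, 26.9 and 30.3 CPM after LPS (0.16 ± 0.09, adjusted p = 0.17). Its promoter is shown because it holds a pair of E-boxes of the CLEAR element (CACGTG, in 7.15% of all promoters), the motif of the lysosomal regulators TFEB and TFE3. They begin 31 and 3 bases before the start, and the second overlaps an antioxidant response element (TGACNNNGC, in 12.4% of all promoters). All are in capitals in the first 260 bases of the window (chr11:55204090-55204349, GRCm38.p6, plus strand).
Slc36a1 promoter: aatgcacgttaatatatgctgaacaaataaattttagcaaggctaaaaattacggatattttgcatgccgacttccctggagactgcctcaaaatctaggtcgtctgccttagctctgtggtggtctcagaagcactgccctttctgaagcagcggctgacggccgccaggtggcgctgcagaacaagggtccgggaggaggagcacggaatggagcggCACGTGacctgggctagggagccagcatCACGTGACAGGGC
Slc38a9 (chr13:112660751-112738749, plus strand), an arginine sensor upstream of mTORC1, stood at 44.1 to 65.6 (median 54.05) CPM in WT at 0 h, 15.99, 15.4, 24.9, 21.3 and 18.6 CPM at 2 h, and 8.702 to 13.6 (median 9.796) CPM at 4 h, again 3 separate ranges (-1.75 ± 0.11, adjusted p = 3.5e-14). MyD88KO went from 55.9, 51.3 and 67.5 to 22.8, 31.3 and 24.9 CPM (-0.80 ± 0.15, adjusted p = 1.3e-04), and the libraries labelled TrifKO had 17.6, 18.3 and 19.8 CPM at 4 h (-1.25 ± 0.15, adjusted p = 7.7e-07). RAW264.7 cells went from 18.03, 18.8 and 16.9 to 10.4, 11.4 and 10.7 CPM (-0.55 ± 0.08, adjusted p = 3.7e-05). Slc36a3 (-1.22) and Slc36a4 (-0.57) also fell in WT BMDC at 4 h. The call of Slc36a4 was lost under 12 of 21 alternatives, among them DESeq2 (adjusted p = 0.064).

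Of 24 tested genes of mTORC1 and its amino acid sensing, 4 rose and 14 fell in WT BMDC at 4 h (median -0.52), 75% beside 65.1% of all genes. In RAW264.7 cells 4 of 23 rose and 12 fell (median -0.22), 69.6% beside 51.6% of all genes. The largest changes in BMDC were those of the Rag GTPase Rragb (-2.69), the leucine sensor family member Sesn1 (-2.14), the lysosomal transcription factor Tfeb (-2.05) and Rragd (-1.49). In RAW264.7 cells they were Sesn1 (-2.50), Tfeb (-1.33), Castor2 (-1.23) and the arginine sensor Castor1 (1.16). The Tfeb response at 4 h differed from that of WT by 1.41 ± 0.30 (adjusted p = 0.0038) in MyD88KO and 1.24 ± 0.30 (adjusted p = 0.0036) in the libraries labelled TrifKO.

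The glutamine carriers Slc1a5 and Slc38a1 fell in WT BMDC at 4 h. Slc1a5 (chr7:16781340-16798274, plus strand), ASCT2, stood at 73.7 to 122 (median 86.4) CPM in WT at 0 h and 18.8 to 39.4 (median 27.4) CPM at 4 h, with no overlap (-1.10 ± 0.17, adjusted p = 1.3e-06). RAW264.7 cells had 504, 505 and 468 CPM before and 495, 513 and 485 CPM after LPS. The libraries overlap, and the TMM-scaled value of 0.19 ± 0.04 (adjusted p = 0.001) passed with the control guide, but for guides 1 and 2 the direction turned with total counts (-0.015 and -0.031). Slc38a1 (chr15:96571418-96642913, minus strand), SNAT1, stood at 76.7 to 158 (median 123) CPM in WT BMDC at 0 h and 17.2 to 40.4 (median 25.3) CPM at 4 h, with no overlap (-1.52 ± 0.23, adjusted p = 1.1e-06). RAW264.7 cells had 374, 371 and 379 CPM before and 358, 369.5 and 411 CPM after LPS (0.20 ± 0.10, adjusted p = 0.11).

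Slc38a2 (chr15:96687392-96699730, minus strand), SNAT2, was lowest at 2 h in WT BMDC. It stood at 140.4 to 203 (median 177) CPM at 0 h, 66.8, 60.7, 78.2, 73.2 and 92.5 CPM at 2 h, and 63.3 to 128 (median 91.8) CPM at 4 h. The fall at 2 h was -0.87 ± 0.12 (adjusted p = 1.1e-06) and that at 4 h -0.29 ± 0.12 (adjusted p = 0.032). The call at 4 h was lost under 12 of 21 alternatives, among them DESeq2 (adjusted p = 0.083), RLE factors and the absence of single libraries. MyD88KO had 167, 131 and 141 CPM at 0 h, 144, 123 and 134 CPM at 2 h, then 203, 143 and 161 CPM at 4 h. The value at 4 h was a rise under TMM scaling (0.56 ± 0.16, adjusted p = 0.0088), while with total counts the value was 0.21 (adjusted p = 0.34). With the TrifKO label, libraries had 172, 189 and 194 CPM at 0 h, 116, 131 and 115 CPM at 2 h (-0.36 ± 0.16, adjusted p = 0.13) and 174, 159 and 144 CPM at 4 h. In RAW264.7 cells it fell from 1032, 998 and 904 to 695, 674 and 596 CPM (-0.40 ± 0.09, adjusted p = 0.0013), with no overlap. Of 13 genes of branched-chain amino acid and glutamine metabolism, 2 rose and 7 fell in WT BMDC at 4 h (median -0.55), 69.2% beside 65.1% of all genes. The aminotransferase Bcat1 fell (-2.08), as did the glutamine synthetase Glul (-1.13) and Bckdha (-0.93). In RAW264.7 cells 2 rose and 2 fell (median -0.03), 30.8% beside 51.6% of all genes.

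**Figure D4:**
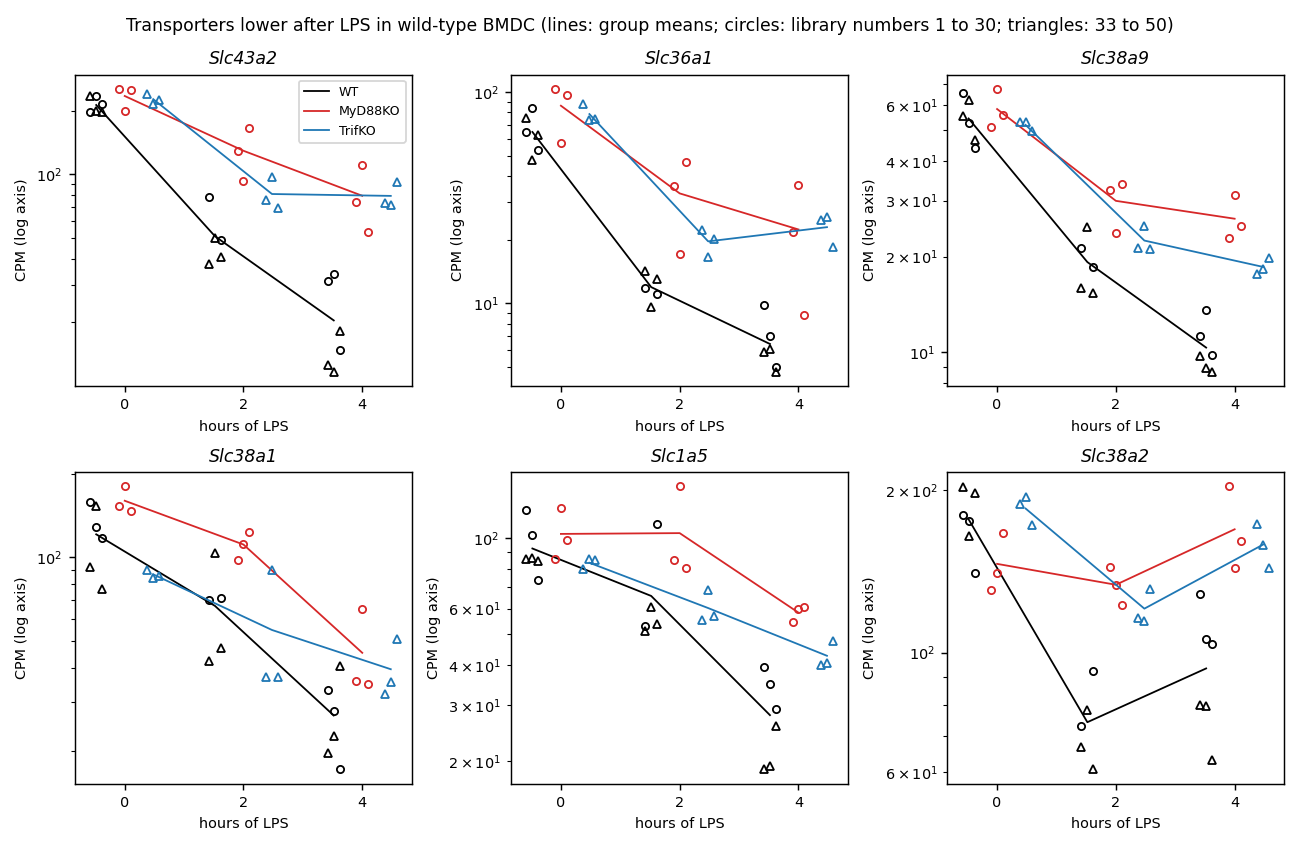
CPM (y axis, log scale) against hours of LPS (x axis) in BMDC for 6 members that fell in WT at 4 h, with 1 symbol per library, lines through the group means, and the genotypes set side by side at each time. For Slc43a2 all MyD88KO libraries and all libraries labelled TrifKO sit above all WT libraries at 4 h. Slc38a2 is lowest at 2 h in WT, and its call at 4 h was lost under 12 of 21 alternatives.

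Of 8 tested genes of tryptophan and kynurenine metabolism, 5 rose and 1 fell in WT BMDC at 4 h (median 1.35), 75% beside 65.1% of all genes. They were led by the dioxygenases Ido2 (3.32) and Ido1 (2.66), the secreted amino acid oxidase Il4i1 (2.06) and the tryptophanyl-tRNA synthetase Wars (1.59). In RAW264.7 cells 2 of 4 rose and 1 fell (median 0.67), 75% beside 51.6%. Of 19 other amino acid and peptide carriers, 4 rose and 7 fell in WT BMDC (median -0.10), 57.9% beside 65.1% of all genes. Among them were the mitochondrial glutamate carrier Slc25a22 (3.62), the lysosomal cystine exporter Ctns (-1.55), the aromatic amino acid carrier Slc16a10 (1.35) and the vesicular glutamate transporter Slc17a8 (-1.25). In RAW264.7 cells 6 of 18 rose and 8 fell (median -0.14), 77.8% beside 51.6%. The Slc25a22 response at 4 h in the libraries labelled TrifKO differed from that of WT by -3.20 ± 0.41 (adjusted p = 1.6e-06), and the Ido1 response by -2.41 ± 0.69 (adjusted p = 0.015).

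The responses of MyD88KO and of the libraries labelled TrifKO were compared with that of WT. Marker sums moved with LPS and with genotype, and the macrophage sum also fell after LPS in the RAW264.7 line. From 0 h to 4 h the mean macrophage sum went from 1655 to 963 CPM in WT, 1884 to 1092 CPM in MyD88KO and 1757 to 1551 CPM in the libraries labelled TrifKO. The mean plasmacytoid sum went from 194 to 562, 165 to 409.7 and 167 to 204 CPM in the same order. The mean sum of mast cells and basophils went from 34.8 to 80.4, 55.3 to 26.8 and 17.2 to 57.2 CPM. That last mean does not show a rise of the group, since the libraries labelled TrifKO ran from 10.8 to 147 CPM at 4 h. Their median at 4 h lay below every library so labelled at 0 h (16.3 to 18.8 CPM). The part of these marker sums in the differences below was not tested. Within MyD88KO, 4 members rose and 2 fell at 2 h (16.1% of all genes called, 8.83% higher and 7.24% lower). At 4 h, 10 rose and 6 fell (34.1%, 17.1% higher and 17% lower), and with total counts alone 8 and 10. Leaving out MyD88KO replicate 1 at 0 h took the 2 h count of 6 to 3. Within the libraries labelled TrifKO, 4 rose and 3 fell at 2 h (20.7%, 11.3% higher and 9.42% lower). At 4 h, 9 rose and 5 fell (25.9%, 14.4% higher and 11.5% lower), and leaving out their replicate 3 at 0 h took the 4 h count of 14 to 9. With total counts alone these became 3 and 5 at 2 h and 8 and 7 at 4 h. Only the test of the difference between responses says whether a member responded otherwise than in WT, and these comparisons share the WT libraries. For MyD88KO at 2 h, Slc38a2 was the 1 member of 38 called (0.442% of all genes). The difference was 0.96 ± 0.21 (adjusted p = 0.026), and it was not called without MyD88KO replicate 2 or 3 at 0 h, replicate 1, 2 or 3 at 2 h, or WT library 34, 36 or 37. At 4 h, 5 members were called (6.86%), 3 with a higher and 2 with a lower value than in WT, against 6 and 2 with total counts alone. Slc43a2 (1.53 ± 0.35, adjusted p = 0.0072), Slc38a9 (0.95 ± 0.18, adjusted p = 0.002) and Slc38a2 (0.85 ± 0.20, adjusted p = 0.0093) fell less than in WT or, for Slc38a2, did not fall. Slc7a7 (-1.31 ± 0.22, adjusted p = 6.0e-04) and Slc7a3 (-2.97 ± 0.75, adjusted p = 0.015) had lower responses than in WT. Set against the WT libraries of the same number range alone, no MyD88KO difference passed. The 4 h values were 1.21 for Slc43a2 (adjusted p = 0.12), 0.83 for Slc38a9 (0.052), 0.53 for Slc38a2 (0.22), -1.18 for Slc7a7 (0.054) and -2.94 for Slc7a3 (0.14). That of Slc38a2 at 2 h was 0.73 (0.61).

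For the libraries labelled TrifKO, no member differed in its 2 h response (edgeR; 1 member at an unadjusted p under 0.05, 0 by DESeq2, beside 1.38% of all genes called). At 4 h, 4 members were called beside 18.3% of all genes, 2 with a higher and 2 with a lower value, against 10 and 1 with total counts alone. Slc43a2 (1.47 ± 0.35, adjusted p = 0.0033) and Slc38a10 (0.52 ± 0.16, adjusted p = 0.022), a broadly expressed neutral amino acid carrier, had higher values than in WT. Slc7a8 (-1.80 ± 0.64, adjusted p = 0.049) and Slc7a3 (-2.97 ± 0.73, adjusted p = 0.0048) had lower ones. Slc7a3 was named after its values were seen: it averaged 0.712 CPM at 0 h and 0.364 CPM at 4 h in these libraries. Against the WT libraries of the same number range, Slc43a2 (1.91, adjusted p = 0.00011), Slc38a10 (0.57, 0.016) and Slc7a3 (-2.99, 0.0014) passed and Slc7a8 (-1.65, 0.14) did not. Without the pair of low-Ticam1 libraries, Slc43a2 (1.35, adjusted p = 0.014) and Slc7a3 (-2.69, 0.020) passed, and Slc38a10 (0.47, 0.054) and Slc7a8 (-1.50, 0.14) did not. The count of 4 became 2 without replicate 2 or 3 at 0 h or replicate 1 at 4 h. Slc7a8 lost its call with total counts alone, without the filter, without any 1 of the libraries labelled TrifKO at 0 h or 4 h, and without WT library 1, 5, 11, 14, 35, 39, 40 or 41. Slc38a10 lost its call without replicate 2 or 3 at 0 h or replicate 1 or 3 at 4 h. Before LPS no member differed between MyD88KO and WT (1 at an unadjusted p under 0.05, 0 by DESeq2, 0.0622% of all genes called by edgeR). The libraries labelled TrifKO did not differ from WT in any member either (edgeR, 0 at an unadjusted p under 0.05, 0 by DESeq2, 0% of all genes).

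In RAW264.7 cells with the control guide, 9 of 35 tested members rose and 13 fell after 2 h of LPS, beside 51.6% of all genes called, 26.3% higher and 25.3% lower (median -0.17 over the members and -0.00 over all genes). Set beside WT BMDC at the same time, 32 members were tested in both. Of these, 6 rose in both (Slc1a1, Slc1a2, Slc3a2, Slc7a2, Slc7a7 and Slc7a11) and 4 fell in both (Slc38a2, Slc38a7, Slc38a9 and Slc43a2). Slc6a6 and Slc6a12 rose in BMDC and fell in RAW264.7 cells. With total counts alone the BMDC calls of Slc1a1 (1.47), Slc3a2 (0.20), Slc7a7 (0.18) and Slc6a6 (0.05, adjusted p = 0.77) were lost. That of Slc6a6 was also lost with only the compared groups or without WT library 37 or 38, and that of Slc1a1 without WT library 5, 13, 33, 35, 36 or 37. A further 3 were called in BMDC alone, 9 in RAW264.7 cells alone and 8 in neither, and the difference between the cells was not tested. The LPS dose is stated for BMDC, and none is given separately for RAW264.7 cells in the sources used here.

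**Figure D5:**
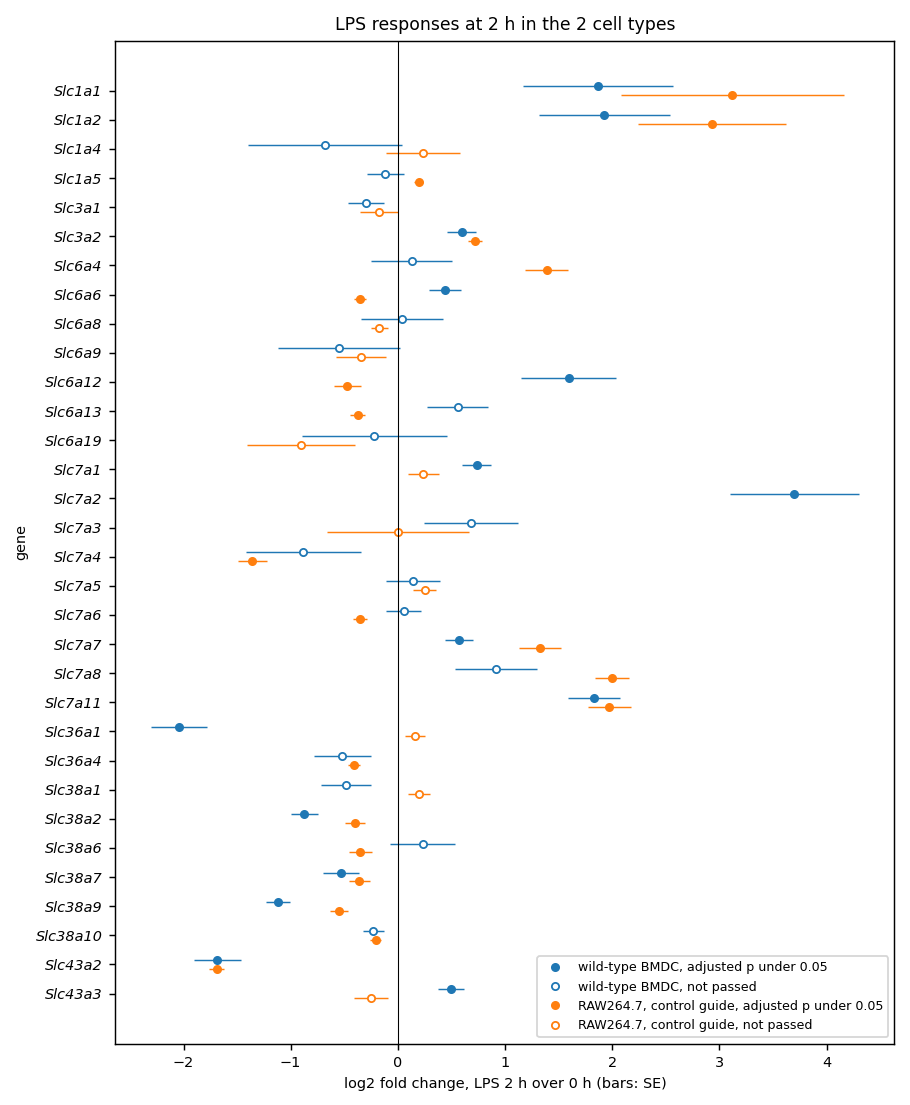
Log2 fold change after 2 h of LPS (x axis, bars are SE) for each of the 32 members tested in both cells (y axis), in WT BMDC (blue) and RAW264.7 cells with the control guide (orange), filled where the adjusted p was under 0.05. No RAW264.7 value is drawn for Slc7a2, which had 0 counts there before LPS. Both values lie close together for Slc7a11 and Slc43a2 and on opposite sides of 0 for Slc6a12.

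The guides were compared with the control guide before LPS and in the response to it. With guide 1, 9 members rose and 13 fell (51.3% of all genes called, 26.2% higher and 25.1% lower). With guide 2, 12 rose and 13 fell (50.8%, 26.3% higher and 24.5% lower), and with total counts alone 9 and 16. The difference from the control-guide response was called for no member with guide 1 (edgeR; 0 at an unadjusted p under 0.05, 0 by DESeq2, 0.00765% of all genes). With guide 2 it was called for none as well (edgeR, 0 at an unadjusted p under 0.05, 0 by DESeq2, 0% of all genes). Slc7a2 had 8 counts over the 3 unstimulated guide 1 libraries and 517 after LPS (46.9-fold), and 6 and 502 with guide 2 (92.4-fold). Before LPS, guide 1 differed from the control guide in 1 member (2.24% of all genes called), Slc7a8, at 1.99, 2.74 and 2.87 CPM against 4.25, 4.03 and 4.69 CPM (-0.75 ± 0.17, adjusted p = 0.026), with no overlap. Guide 2 differed in 1 member (4.53%), Slc38a10, by 0.20 ± 0.05 (adjusted p = 0.031). Both calls were lost when single libraries were left out, any 1 of the 6 for the first, and guide 2 replicate 1 or 2 or any control replicate for the second.

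In unstimulated BMDC, the deletions of Suv39h1 and of the interferon receptor left few calls among 36 tested members. Suv39h1KO against WT called 1 (0.209% of all genes), Slc6a15, a branched-chain amino acid transporter of neurons, which averaged 0.773 CPM against 0.0963 CPM (log2 fold change 2.99) and was not called when any 1 of the 6 libraries was left out. With the cohort number as a block 2 were called beside 163 of all genes, and by DESeq2 2 beside 120, each time 1 higher and 1 lower. Suv39h1 loss without the interferon receptor called none by edgeR (4 at an unadjusted p under 0.05, 2 by DESeq2, 2 with the block, 0.222% of all genes). There too the block and DESeq2 each called 1 member higher and 1 lower, beside 192 and 131 of all genes. IfnarKO against WT called none (1 at an unadjusted p under 0.05, 0 by DESeq2, 0.125%), and loss of the receptor without Suv39h1 none (4 at an unadjusted p under 0.05, 0 by DESeq2, 1 with the block, 0.16%).

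Slc7a2, the largest riser under LPS, stood at 56.2, 78.2 and 59.8 CPM in these WT cells, 40.4, 32.5 and 48.6 CPM in Suv39h1KO, 57.1, 73.7 and 90.5 CPM in IfnarKO and 51.9, 50.9 and 34.5 CPM in double-knockout cells. Both groups without Suv39h1 lay below their partners without overlap, but the differences of -0.67 ± 0.22 (adjusted p = 0.66) and -0.70 ± 0.22 (adjusted p = 0.53) did not pass. Slc6a13 had the same layout, with -0.79 ± 0.22 (adjusted p = 0.42) and -0.86 ± 0.22 (adjusted p = 0.32). The edgeR fit behind these values holds no term for the cohort number, though same-numbered cohorts deviated together in this experiment. Slc7a11 and Slc43a2 did not pass either, with Slc7a11 at 332, 516 and 362 CPM in WT and 332, 395 and 306 CPM in Suv39h1KO (-0.21 ± 0.23, adjusted p = 1). Slc43a2 was at 246, 278 and 208 and 238, 236 and 225 CPM (-0.06 ± 0.11, adjusted p = 1).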

How the data were processed

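RNA sequencing libraries of polyA RNA (TruSeq Stranded kit, per the labels' protocols) had been aligned and counted before deposit, and the authors deposited raw counts per gene, whole numbers in 1 table of 65 libraries. STAR, HOMER, DESeq2 and mm10 are named in the submitters' processing notes, without versions, and whether counting used strand is not given in the sources used here. The gene table has 23755 symbols, of which 2824 have no counts. Reads were not analysed here.

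The experiments were modelled separately in edgeR 4.0.16 (R 4.3.3), over all genes and groups of each: filterByExpr (minimum count 10, minimum total 15), TMM scaling, a quasi-likelihood fit with 1 term per group, and Benjamini-Hochberg adjustment over all genes tested, with 0.05 as the threshold. Every adjusted p in the text is from this test unless DESeq2 1.42.0 is named. Errors of log2 fold changes are standard errors obtained from the F statistic, and those of CPM are standard deviations. CPM are scaled to the total of all gene counts of a library. The prior count was 2, and plots of log2 CPM add 1. Intervals and p-values cover the spread between libraries. The fit was also run on simulated counts with known changes, drawn independently for each library. That run holds no shared cohorts or close libraries, so it cannot speak for their effect on the p-values. Of 88 replicate pairs, the lowest chi-square per degree of freedom was 5.08, so none was taken as 1 library deposited again.

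The members, the gene lists and the alternatives were chosen with earlier results of these data known. Members with a called log2 change of at least 1 and at least 5 CPM on average in whichever group was higher are described with values, up to 25, together with a set of heavy chains, light chains, arginine, glutamine and lysosomal carriers. Other called members are given by log2 fold change alone. Up to 4 called genes are named per list and comparison, those with the largest change, except 1 that is not reported here. The lists cover the ATF4 response, arginine, cystine and NRF2, tryptophan, branched-chain amino acids and glutamine, mTORC1 sensing, other carriers and markers of the cell types given in the report.

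Same-numbered cohorts deviated together in the unstimulated knockout experiment (mean correlation of residuals 0.451, lowest 0.268), in MyD88KO (0.589, lowest 0.484) and in WT libraries 33 to 50 (0.450, lowest 0.315). The correlation was weaker but positive in all pairs of WT libraries 1 to 30 (mean 0.385, lowest 0.0240). The same held for RAW264.7 cells (mean 0.120, lowest 0.0591 for the control guide, and means 0.148 and 0.182 for guides 1 and 2). In the libraries labelled TrifKO it was not positive in all pairs (mean 0.129, lowest -0.264). Gene positions are those of GENCODE M21 and promoters those of RefSeq on GRCm38.p6. Alternatives were RLE factors, total counts alone, no filter, the cohort number as a block, DESeq2, only the compared groups, a term for the library number range, WT libraries of that range alone, WT libraries of a cohort summed and each library left out. A block of range and cohort together, and the absence of both low-Ticam1 libraries, were added after seeing the data.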

Additional observations from a re-analysis of the deposited data

Results flagged for a closer look

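The response to LPS differed between genotypes, by the test of the difference within the fit (edgeR, adjusted over all genes), in the following cases, each with its log2 difference from the WT response. For MyD88KO it was 0.96 for Slc38a2 at 2 h, and at 4 h 0.85 for Slc38a2, 0.95 for Slc38a9, 1.53 for Slc43a2, -2.97 for Slc7a3 and -1.31 for Slc7a7. For the libraries labelled TrifKO at 4 h it was 0.52 for Slc38a10, 1.47 for Slc43a2, -2.97 for Slc7a3 and -1.80 for Slc7a8. All 6 MyD88KO values missed the threshold against WT libraries of the same number range.

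A single library stood apart from its group for 4 of 60 sets of WT values examined, and chance alone would set apart about 3. WT library 13 at 2 h had 110.6 CPM of Slc1a5 against 60.5 CPM in the next. WT library 38 at 2 h had 89.3 CPM of Slc7a1 against 59.8 CPM. WT library 11 at 0 h had 2.69 CPM of Slc3a1 against 2.15 CPM, and WT library 4 at 4 h had 26.9 CPM of Slc7a6 against 15.6 CPM.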

How the results depend on the processing

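Of 170 called values of single members, DESeq2 and RLE factors each left 168 called, no filter 162, the replicate block 170 and the fit of the compared groups alone 151 of 163. Total counts alone left 148, lost 19 and turned 3: Slc43a3 in WT at 4 h (-0.34) and Slc1a5 with guide 1 (-0.015) and guide 2 (-0.031). A term for the number range left 98 of 98, WT libraries of a cohort summed 90 of 98, and the absence of both low-Ticam1 libraries 21 of 25. Depth limits the members under about 1 CPM, of which 26 never passed that level.

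The count of MyD88KO response differences at 4 h (5) became 8 with total counts, 12 with the block of range and cohort and 0 against WT of the same range. The count of TrifKO-labelled response differences at 4 h (4) became 11, 15 and 7 under those settings and 8 with the cohort block. The MyD88KO difference at 2 h (1) became 2 with the block of range and cohort and 0 against the same range. At 2 h the MyD88KO response (6) became 2 and the TrifKO-labelled response (7) became 11 with only the compared groups, and 10 and 15 with the block of range and cohort. Suv39h1KO against WT (1) became 2 with the block, 2 by DESeq2 and 0 with only the compared groups. Without Ifnar (0) it became 1 with no filter, 2 with the block and 2 by DESeq2. IfnarKO without Suv39h1 (0) became 1 with the block. Guide 1 against control (1) became 3 with the block, 2 by DESeq2 and 2 with only the compared groups, and guide 2 (1) became 8 with the block and 3 by DESeq2. The cause of these moves was not tested.

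Leaving out 1 library at a time gave 13 to 19 called members for WT at 2 h, 26 to 29 at 4 h, 3 to 5 and 11 to 16 for MyD88KO, and 6 to 9 and 9 to 13 for the libraries labelled TrifKO. Response differences gave 0 to 1 and 5 to 6 for MyD88KO and 0 and 2 to 5 for the libraries labelled TrifKO. Suv39h1KO gave 0, control guide RAW264.7 cells 20 to 23, guide 1 21 to 23, guide 2 20 to 25, guide 1 against control 0 to 1 and guide 2 against control 0 to 3.

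With TMM-scaled library sizes the family sums of WT BMDC at 0 h and 4 h became 440.4 and 265.1 CPM for Slc38, 225 and 517 for Slc3, and 203 and 56.2 for Slc43. Slc1 became 112 and 62.0, Slc6 683 and 1096, and Slc7 532 and 3083. In control guide RAW264.7 cells before and after LPS, Slc1 became 499 and 572, Slc3 239.7 and 393, Slc36 114 and 95.7, Slc38 1523 and 1307, Slc6 1511 and 1174, and Slc7 1218 and 1998, and Slc43 before LPS 312.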

Other observations

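Within the LPS time course, replicate 3 stood at 1 end for several members in all genotypes, a layout noticed in the data and not tested. In 12 sets of libraries of 1 genotype, number range and time, it was the lowest in 11 for Slc7a2, 11 for the glutamate transporter Slc1a2, 11 for the lysosomal Slc36a1, 10 for Slc7a8 and 10 for Slc6a13. It was the highest in 11 for the glutamine carrier Slc1a5, 8 for Slc38a1 and 8 for Slc7a1. Members that were lowest in replicate 3 include both risers (Slc7a2) and fallers (Slc36a1) under LPS. In WT and MyD88KO replicate 3 was also the replicate with almost no Xist, so sex and replicate cannot be told apart there.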
